A study of Arabidopsis thaliana with 24 samples.

Results

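AT2G43870 and AT3G59850 are Arabidopsis thaliana genes of the pectin lyase-like superfamily, and they were picked from a time course of root meristems because their values rose early and then declined. They are 2 of 16552 genes with a named probe set, and each was measured by 1 probe set on the array. The study profiled 24 arrays, 3 at each of 0, 0.5, 1, 2, 3, 4, 5 and 6 h after transfer of 4-day-old Col-0 seedlings to medium with dexamethasone, and the 0 h arrays were the starting point. All seedlings carried the same pair of introduced constructs, pRPS5A::TMO5:GR and pRPS5A::LHW:GR, in which the transcription factors TMO5 and LHW are fused to a steroid receptor domain and driven by a promoter active in dividing cells, so that dexamethasone moves the fusion proteins into the nucleus. Arrays of seedlings without the constructs or without the steroid were not analysed here, and effects of being moved, of the steroid and of time itself cannot be told apart. The labels do not say whether repeats came from separate cultures, so the spread between arrays may be technical. In bulk tissue, fewer cells of a type and less RNA per cell cannot be told apart.

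Pectin is the gel of galacturonic acid chains that fills the plant cell wall and glues neighbouring cells together. Proteins of the pectin lyase-like superfamily share a coiled beta-helix fold, and many of them are polygalacturonases or pectate lyases, which cut those chains. Pectin methylesterases prepare the chains by removing methyl groups, and together these enzymes loosen walls during cell growth, cell separation and root branching.

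The median log2 value of an array was 3.86 to 4.01, and precision is set by having 3 arrays a time. Repeat 3 stood apart at the early times. On the first principal component of all genes (18.8% of the variance) it exceeded the mean of repeats 1 and 2 by 19.2 for 0 h, by 9.7 to 13.1 for the times from 0.5 to 3 h, and by 0.0672 to 3.47 for the later ones. Of the markers listed for the root stem cell niche and meristem, 2 of 7 were measured. The 0 h means were 8.20 ± 0.08 (SD, n = 3) for JKD and 5.20 ± 0.36 for BBM. The other listed niche markers were not analysed here. Of 12 markers measured for all cell types listed, none was called between 0 and 1 h by limma, where 0.471% of all genes were called. With so low a share, none of 12 does not show that cell types stayed constant. An unadjusted limma p under 0.05 was found for 2 (JKD and OPS), and the share of all genes at that threshold was not computed. The phloem marker OPS differed most, by 0.52 (limma adjusted p = 0.466). The root cap polygalacturonase gene AT1G65570 differed by -0.01 ± 0.16 (SE) over that hour (limma adjusted p = 0.995).

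AT2G43870 was near its peak by the first time after transfer. Its log2 values were 5.49, 5.63 and 5.62 on the 3 arrays of 0 h, then 6.83, 6.46 and 6.67 on those of 0.5 h. The 1 h arrays gave 6.98, 6.76 and 6.80. All arrays of 0.5 h and of 1 h lay above all arrays of 0 h, and the arrays of 0.5 h and 1 h overlapped with each other. The values then dropped to 5.87, 6.28 and 6.38 at 2 h, where repeat 1 was the low array. From 3 h on the 12 arrays lay between 5.97 and 6.25, below every array of 0.5 and 1 h and above every array of 0 h.

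**Figure D1:**
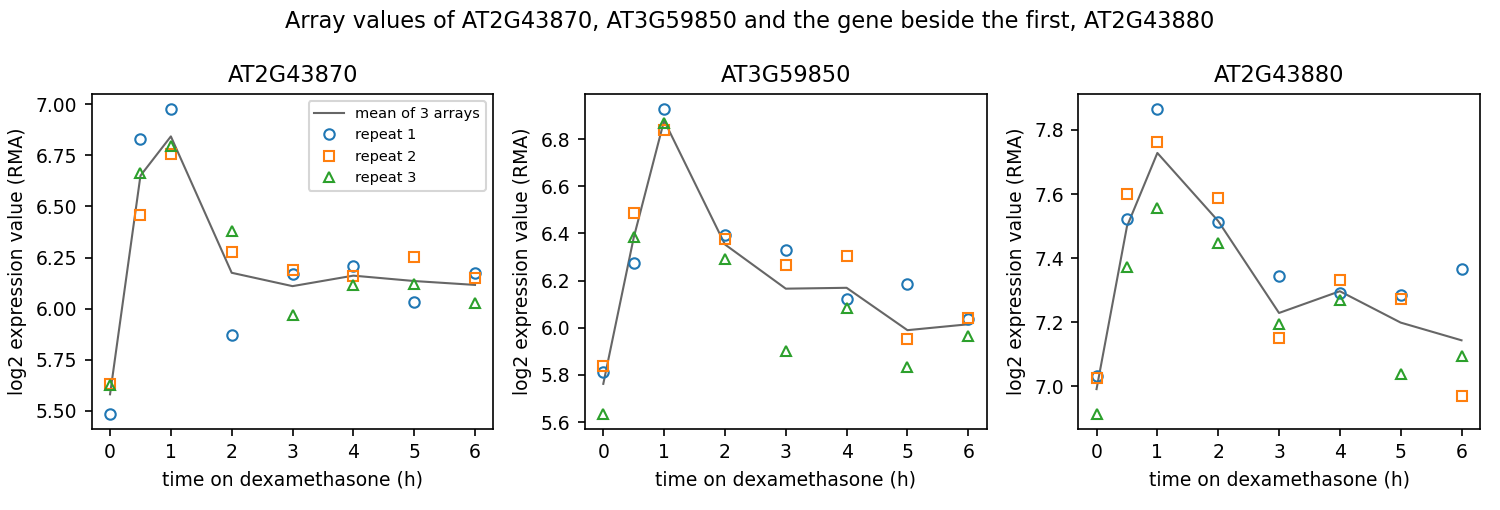
Log2 expression values (RMA) of AT2G43870, AT3G59850 and the adjacent gene AT2G43880 against the time on dexamethasone in hours. Symbols are the 3 arrays of each time, lines join their means, and the vertical axes do not start at 0; in each gene the 1 h mean is the highest, at 6.84, 6.88 and 7.73.

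As differences from 0 h, the log2 changes of AT2G43870 were 1.07 ± 0.12 (SE) by 0.5 h and 1.26 ± 0.12 by 1 h, or 2.10-fold and 2.40-fold on the linear scale. These are the values for which it was picked, and they are given without a test. By 0.5 h the gene had 84.8% of its 1 h change. The change was 0.60 at 2 h and stayed between 0.53 and 0.58 from 3 to 6 h, so that 42.4% of the 1 h change was left at the last time. In the order of its means, 1 h came first and 0.5 h second, with overlapping arrays. The means of 2, 4, 5, 6 and 3 h followed, from 6.18 down to 6.11, with overlapping arrays, and 0 h was lowest and apart from the rest. The lowest array of 2 h moved that time most: without repeat 1 of 2 h, the change at 2 h was 0.75.

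AT3G59850 climbed in separate steps to its 1 h peak. Its log2 values were 5.81, 5.84 and 5.64 on the 0 h arrays, then 6.28, 6.49 and 6.38 on those of 0.5 h. The 1 h arrays gave 6.93, 6.84 and 6.87, a mean of 6.88 ± 0.04 (SD, n = 3). Here the 3 times were fully separate, with every 0.5 h array between those of 0 h and those of 1 h. At 2 h the values were 6.39, 6.38 and 6.29, back in the range of 0.5 h. From 3 to 6 h the arrays lay between 5.83 and 6.33, and at 5 h they reached down into the range of 0 h.

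The log2 change of AT3G59850 from 0 h was 0.62 ± 0.11 (SE) by 0.5 h and 1.12 ± 0.11 by 1 h, which is 1.54-fold and 2.17-fold. By 2 h it was 0.59, it stood at 0.40 and 0.41 for 3 and 4 h, and at 0.23 and 0.25 for 5 and 6 h. At 0.5 h the gene had 55.5% of its 1 h change, and at 6 h 22.6% was left. In the order of the means, 1 h stood alone at the top. From there down, 0.5, 2, 4, 3, 6, 5 and 0 h each overlapped with the next. Leaving out repeat 3 of 3 h, a low array at 5.90, put the change at 3 h at 0.54.

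The late arrays (4, 5 and 6 h) of both genes were lower than the early ones (0.5, 1 and 2 h) on average, by 0.42 ± 0.07 (SE) in log2 for AT2G43870 and by 0.48 ± 0.06 for AT3G59850. The arrays of the early and the late set overlapped in both genes. Without repeat 3 of 0, 0.5, 1 and 2 h, the 1 h changes were 1.31 and 1.06 and the 6 h changes 0.56 and 0.19. In both genes the 1 h value was the larger without those arrays too. Some cell type markers moved over the same interval. The root hair expansin genes EXPA7 and EXPA18 were higher late than early by 0.40 and 0.60 (limma adjusted p = 0.0473 and 0.00789), the shoot marker RCA by 0.40 (limma adjusted p = 0.00345) and the niche and meristem marker JKD by 0.23 (limma adjusted p = 0.0164). These were 4 of the 12 markers measured, in a comparison where 4.39% of all genes were called risen and 7% called in all. BBM, the other niche marker measured, had a difference of -0.14 (limma adjusted p = 0.528). RCA, with a 0 h mean of 4.55, also rose at each time from 3 h on, by 0.78 at 6 h (limma adjusted p = 0.00257). The part of such cells in the late values of AT2G43870 and AT3G59850 was not tested.

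The courses of both genes were then set against each other, array by array. Both genes had been picked from these values for an early transient rise. That choice favours like courses, so a test of their difference is not independent of it. AT2G43870 minus AT3G59850 averaged -0.18 ± 0.16 (SD, n = 3) for 0 h, 0.27 ± 0.29 for 0.5 h and -0.04 ± 0.07 for 1 h. The change of AT2G43870 at 0.5 h thus exceeded that of AT3G59850 by 0.45 ± 0.16 (SE), while at 1 h the excess was 0.15 and at 2 h 0.00. At 5 and 6 h it was 0.33 and 0.28. The 0.5 h arrays of this difference were 0.55, -0.03 and 0.28, and the lowest of them overlapped with 0 h.

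A permutation test over all 24 arrays and 8 times (100000 resamples, two-sided) gave p = 0.125 for a difference between the courses. The p was 0.0345 without repeat 2 of 0.5 h and 0.0386 without repeat 1 of 5 h, and at most 0.271 without any other single array. Each time against 0 h is a comparison of 3 arrays with 3, whose exact permutation p cannot go below 0.1, and it was 0.2 at 0.5 h. At 6 h it was 0.1, the smallest possible, and all arrays of the difference (0.13, 0.11 and 0.06) lay above all arrays of 0 h (-0.33, -0.21 and -0.01). Both genes were picked from these values for an early transient rise, so these p-values cannot decide whether the courses differed or were alike.

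**Figure D2:**
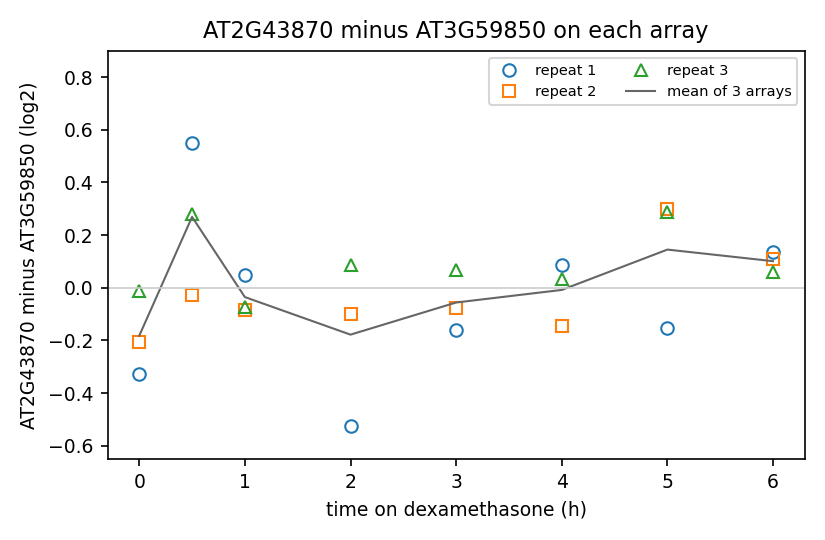
AT2G43870 minus AT3G59850 in log2 on each array (symbols) and the mean of the 3 arrays (line) against the time on dexamethasone in hours. The mean is highest at 0.5 h, at 0.27, where the 3 arrays run from -0.03 to 0.55.

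Array by array within a time, no relation between the genes was detected. The deviations from the time means had a Pearson correlation of -0.06 over 24 arrays (permutation within times, p = 0.792) and a Spearman rho of -0.07 (permutation p = 0.767). Without the 2 arrays farthest from the median of AT2G43870, r was 0.08 (n = 22, permutation p = 0.761). After the first component of the deviations of all genes, 12.2% of their variance, was taken out, r was 0.02 (permutation p = 0.948).

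AT2G43870 lies in a run of related genes on chromosome 2. The gene table places AT2G43880 directly after it, with AT2G43890 next, and AT2G43860 before it beyond the small gene AT2G43865. AT2G43860, AT2G43880 and AT2G43890 were all listed as polygalacturonase genes. They were not among the genes picked for the early rise, so their changes were taken from the limma fit across all 16552 genes.

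AT2G43880 also had its highest mean at 1 h. Whether its probes also detect RNA of the related genes was not tested. Its log2 values were 7.03, 7.03 and 6.92 at 0 h and 7.86, 7.76 and 7.56 at 1 h, with no overlap. It rose by 0.74 ± 0.11 (SE) at 1 h (limma adjusted p = 0.00107), 1.67-fold. At 1 h 0.326% of all genes tested were called risen. It also rose at 2 h, by 0.52 (limma adjusted p = 0.016), against 0.501% of all genes. From 3 to 6 h its changes were between 0.15 and 0.31 and were not called, with limma adjusted p between 0.145 and 0.52.

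The late mean of AT2G43880 lay 0.37 below its early mean (limma adjusted p = 8.98e-04), in a comparison where 2.6% of all genes were called fallen. At 0.5 h its change of 0.51 had a limma adjusted p of 0.0582. The 1 h call was present without any one of the 6 arrays compared and was lost in a fit of those 6 arrays alone (adjusted p = 0.263; over all 15 alternatives from 5.1e-05 to 0.263). The 2 h call was lost without repeat 1 or 2 of 2 h (adjusted p = 0.0619 and 0.0824), without repeat 3 of 0 to 2 h (0.0716) and in the fit of 6 arrays (0.189), over alternatives from 0.00273 to 0.189. At 6 h 20.7% of its 1 h change was left, near the 22.6% of AT3G59850.

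Neither AT2G43890 nor AT2G43860 was called at 1 h. AT2G43890 had log2 values of 6.89, 6.29 and 6.36 at 0 h, between 6.62 and 6.69 at 1 h, and by 6 h they were 4.57, 5.35 and 5.48. It fell at 6 h by 1.38 ± 0.26 (SE; limma adjusted p = 0.00328), a 2.61-fold drop, while its change at 1 h was 0.13 (limma adjusted p = 0.942). All arrays of 6 h lay below all arrays of 0 h. Its smaller falls at 4 and 5 h had limma adjusted p of 0.0405 and 0.0486. The call at 4 h was lost without any array but repeat 3 of 0 h (adjusted p from 0.0543 to 0.197), and that at 5 h without repeat 1 or 2 of 0 h or repeat 1 or 3 of 5 h (0.0728 to 0.22). At 5 h the call was also lost without repeat 3 of 0 to 2 h (0.0607) and with the replicate number as a block (0.0502). The 6 h call was lost in a fit of the 6 arrays alone (0.0527; over all 15 alternatives from 0.00137).

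AT2G43860 was dim throughout, with means between 1.30 and 1.77, and was not called at any time against 0 h (limma adjusted p of 0.0814 at 6 h and higher at the other times). Its 6 h change of 0.47 was called after a second quantile normalization (adjusted p = 0.0354) and without repeat 2 of 6 h (0.0199), over alternatives from 0.0199 to 0.343. AT2G43865 had means between 1.61 and 2.01 and was not called either. Beside AT3G59850, the nearest measured genes AT3G59845 and AT3G59870, the latter beyond a pseudogene, had 1 h changes of -0.06 and -0.34 and were not called (limma adjusted p = 0.953 and 0.748).

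**Figure D3:**
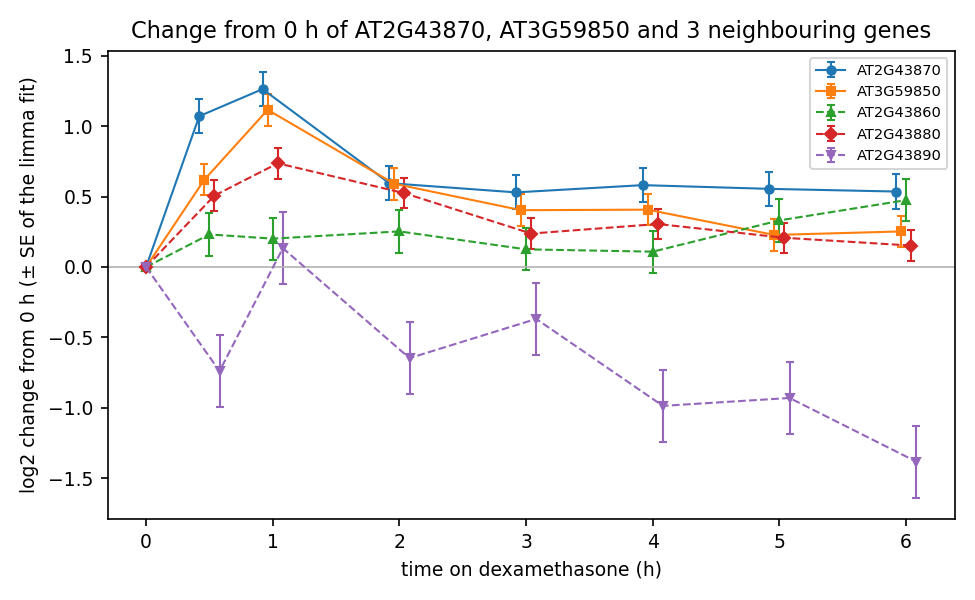
Log2 change from 0 h against the time on dexamethasone in hours for AT2G43870, AT3G59850 and 3 genes near the first, with bars for ± 1 SE of the limma fit and points shifted slightly sideways. AT2G43880 peaks at 1 h at 0.74, AT2G43890 reaches -1.38 at 6 h, and AT2G43860 stays between 0 and 0.47.

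A partial list of other pectin genes was set beside them. It rests on gene names and on loci known beforehand, without gene descriptions. Measured pectin genes known only by a locus number can be missing, and no gene was listed as a pectate lyase. The counts below hold for the list only. Of 103 other genes of pectin breakdown, modification and synthesis on the list, 38 were measured, 33 of them listed as polygalacturonases and 5 as pectin methylesterases. The inhibitors, acetylesterases and synthesis genes of the list were not analysed here. The mean over all arrays was under 2 for 25 of the 38, a range where values carry no detection call, and 5 or more for 10. In all, 6 of the 38 were called in at least 1 of the 8 comparisons, as were 10.5% of all genes.

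At 0.5 h no gene of the list was called by limma, while 0.224% of all genes were called (0.145% risen and 0.0785% fallen). An unadjusted limma p under 0.05 was found for 6 of the 38. The share of all genes at that threshold was not computed, so the 6 cannot be set against it. AT2G43880 was called with the replicate number as a block (adjusted p = 0.0198), with a trended and robust variance (0.0103) and without the dimmest genes (0.0388), over alternatives from 0.0103 to 0.63. At 1 h AT2G43880 was the single gene of the list called, 1 of 38, against 0.471% of all genes. Pectin genes that the list missed are not in this count, so it does not show that no other pectin gene rose. AT4G13710, AT4G23500 and AT5G19730, known here only by locus number, were called risen at 1 h, by 0.57, 0.64 and 0.56. They are not on the list, and whether they are pectin genes was not checked. The median change of the 38 at 1 h was -0.01 and that of all genes 0.00. At 2 h 1 rose and 2 fell, with 0.973% of all genes called. By 3 h 1 rose and 1 fell, with 2.33% of all genes risen and 1.17% fallen (3.5% in all). The 4 h counts were 2 risen and 3 fallen, with 1.78% and 1.03% over all genes (2.8% in all). Those of 5 h were 2 and 2, with 2.09% and 1.24% (3.33% in all). The 6 h counts were 1 and 3, with 2.5% and 1.65% (4.14% in all), and the median change was -0.14 against -0.03 for all genes. In late against early times 1 rose and 2 fell, with 4.39% of all genes risen and 7% called in all.

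The largest fitted changes of the list were falls of a single gene. AT4G02330 (ATPMEPCRB), a pectin methylesterase gene, fell by 2.10 ± 0.35 (SE) in log2 at 6 h (limma adjusted p = 0.0013) and by 1.86 at 4 h (adjusted p = 0.00532). Both calls were present in all 15 alternatives run. It was also called at 2 h (-1.81, limma adjusted p = 0.0097) and 5 h (-1.42, adjusted p = 0.0275), calls lost in 3 and 4 of the 15 alternatives. Its mean was already lower at 0.5 h (4.00) and 1 h (3.52) than at 0 h (4.87), though it was not called at those times. PMEPCRF (AT5G53370), another pectin methylesterase gene, went the other way and rose by 0.78 ± 0.15 at 6 h (limma adjusted p = 0.00425). Its late mean exceeded its early mean by 0.52 (adjusted p = 7.02e-04). The 6 h call was lost in the fit of the 6 arrays alone (adjusted p = 0.0756), and that of late against early was present in all 27 alternatives.

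The polygalacturonase genes AT1G70500 and AT3G15720 were called at some times. AT1G70500 rose by 0.77 at 4 h (limma adjusted p = 0.0342), a call lost without repeat 1 or 2 of 0 h or repeat 2 or 3 of 4 h (adjusted p from 0.0838 to 0.161). AT3G15720 fell by 0.55 at 3 h (limma adjusted p = 0.0202), a call lost without repeat 1 of 0 h or repeat 1 or 3 of 3 h (adjusted p from 0.0724 to 0.114). Among the list's genes called at no time, AT1G10640 had the largest difference, -0.87 at 3 h (limma adjusted p = 0.0878).

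**Figure D4:**
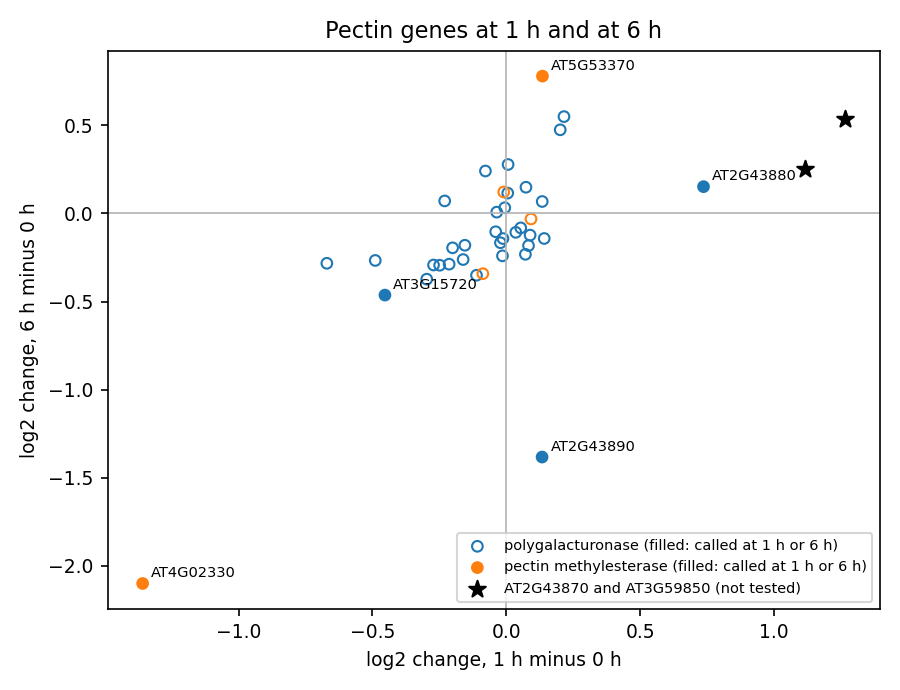
Log2 change at 6 h against log2 change at 1 h for the 38 measured genes of the pectin list (circles, filled where limma called the gene at either time) and for AT2G43870 and AT3G59850 (stars). AT2G43880 is the circle nearest the stars, at 0.74 and 0.15, and AT4G02330 lies lowest, at -2.10 on the vertical axis.

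Set among the early risers of the series, both genes stood high at 1 h and kept a smaller share of that change at 2 h than most. By size of the 1 h change they ranked 6 and 9 of 16552 genes, AT2G43870 between ATSBT5.2 (1.27) and AT1G20530 (1.22), and AT3G59850 between AT1G68470 (1.22) and MT1B (1.11). Of the 54 genes called risen at 1 h, 27 had their highest mean at 1 h. Both picked genes are in these counts. Their place there rests on the values they were picked for and is not a test of them. The share of the 1 h change left at 2 h had a median of 89.3% over the 54 genes, against 47.1% in AT2G43870 and 52.9% in AT3G59850, ranks 6 and 7 from the lowest. At 6 h the median was 72.8%, and the 2 genes ranked 18 and 8 from the lowest. All of these shares rest on the contrast that chose the genes, and they are a description.

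**Figure D5:**
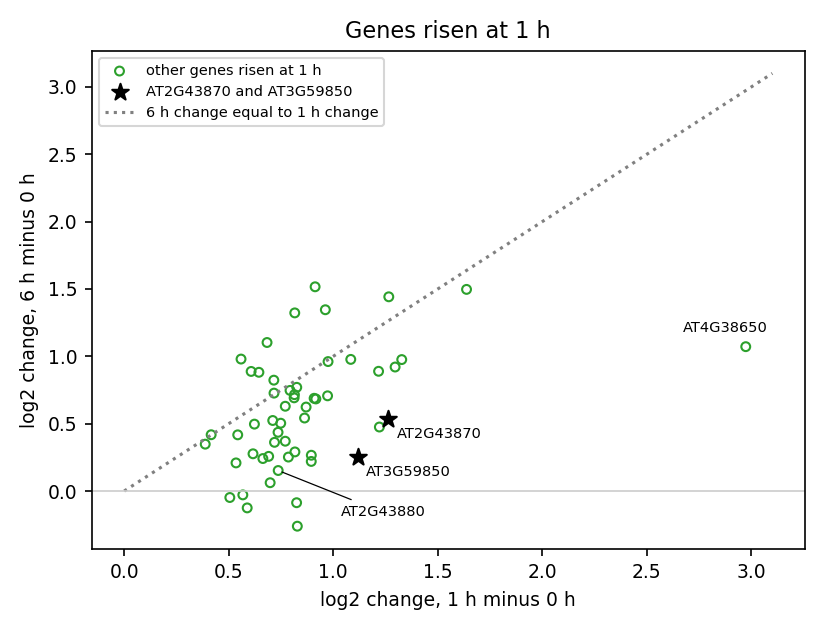
Log2 change at 6 h against log2 change at 1 h for the 54 genes called risen at 1 h, with AT2G43870 and AT3G59850 as stars and a dotted line where the changes are equal. Both stars lie below the line, at 0.54 and 0.25 on the vertical axis, as does AT4G38650 at 1.07.

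Likeness of course was measured as the Pearson correlation over the 8 time means, among genes whose means spanned at least 1 in log2, which left 341 genes beside each. These correlations share the same 24 arrays and are given as a description. AT2G43870 and AT3G59850 were both picked for an early transient rise, so their likeness to each other follows in part from that choice. AT2G43870 was most like AT1G20530 (r = 0.929), followed by AT3G59850 (0.912), ROXY1, a glutaredoxin gene (0.882), AT4G38650, a glycosyl hydrolase family 10 gene (0.869), and MYBC1, a MYB-like transcription factor gene (0.857). AT3G59850 was most like AT4G38650 (0.944), then AT2G43870 (0.912) and AT5G08760 (0.841). AT2G43880 spanned less than 1 and was not in that set, and its correlations were 0.898 with AT2G43870 and 0.971 with AT3G59850.

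The genes most alike in course differed in size and in what was left late. AT4G38650 had log2 changes of 2.18, 2.97 and 2.49 at 0.5, 1 and 2 h and of 1.07 at 6 h. AT1G20530 peaked earlier, with 1.43 at 0.5 h and 1.22 at 1 h, and had 0.48 at 6 h. ROXY1 and MYBC1 had 1 h changes of 1.30 and 1.33 and kept 0.92 and 0.98 at 6 h, more than either pectin lyase-like gene. AT5G08760 had 0.13 at 0.5 h, 0.83 at 1 h and 0.12 at 2 h. AT3G44704, in the list of both genes, had 0.96 at 0.5 h and 0.82 at 1 h and lay at -0.09 at 6 h.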

How the data were processed

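The deposited values are log2 expression values of Affymetrix whole-transcript arrays, computed by the authors by RMA, per the submitters' processing notes. RMA corrects background, normalizes by quantiles and summarises each probe set. Its version and the array's genome build: not given in the sources used here. Quantile normalization can hide a shift common to most genes. The table held 38408 probe sets, of which 16746 had 1 gene name, 758 had several and 20904 were unnamed here. Names were brought up to date with RefSeq's table for TAIR10.1 (16601 probe sets matched), which was also used for the order of genes. Where a gene had several probe sets (165 of 16552 genes) they were averaged.

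Groups were the 8 times from the sample titles. All genes were fitted with a mean per time in limma 3.58.1 in R 4.3.3 (lmFit, eBayes), with calls at p under 0.05 after Benjamini-Hochberg adjustment. Array residual SDs ran from 0.152 at 6 h to 0.215 at 0 h, so the shared spread can understate the error at 0 h. AT2G43870 and AT3G59850, the pectin list and the tests were chosen with earlier results of these data known. The pectin list was written from gene names and known loci, without gene descriptions, and can be incomplete. Other genes named are the neighbours, pectin genes called (up to 10) or with the largest uncalled changes (up to 4), and the 10 genes most alike in course to each; the text gives part of these. The repeat numbers are not treated as pairs: residuals of same-numbered arrays correlated between -0.0304 and 0.223, with 4, 0 and 10 of 28 pairs over 0.1 for repeats 1, 2 and 3. In simulations of the 1 h comparison with 200 of 16552 genes changed, limma recovered 36% of log2 changes of 0.5 and 90.4% of changes of 1, with 5.54% of calls false. No sequences were used.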

Additional observations from a re-analysis of the deposited data

How the results depend on the processing

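Each of the 16 changes of AT2G43870 and AT3G59850 kept its sign under median centring, a second quantile normalization, the brightest probe set, the replicate block, no repeat 3 at 0 to 2 h, and without each array. Without single arrays, the changes of AT2G43870 from 0 h ran from 0.98 to 1.17 at 0.5 h, 1.20 to 1.31 at 1 h, 0.49 to 0.75 at 2 h, 0.48 to 0.60 at 3 h, 0.53 to 0.61 at 4 h, 0.50 to 0.61 at 5 h and 0.49 to 0.58 at 6 h, and those of AT3G59850 from 0.56 to 0.67, 1.05 to 1.15, 0.53 to 0.63, 0.32 to 0.54, 0.34 to 0.45, 0.13 to 0.31 and 0.19 to 0.29. The test of the difference between the courses gave p from 0.0345 to 0.271 without single arrays and 0.0983 with permutation within the replicate block, and the within-time correlation ran from -0.34 to 0.05.

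The number of genes of the pectin list called was 0, 1, 3, 2, 5, 4 and 4 from 0.5 to 6 h and 3 in late against early. Without single arrays it was 0, 1, 1 to 3, 0 to 3, 1 to 6, 0 to 4 and 3 to 5, and 3 to 4. The lowest counts came without repeat 1 of 0 h (1, 0, 1 and 0 for 2, 3, 4 and 5 h), and also without repeat 1 or 2 of 2 h, repeat 3 of 3 h and repeat 2 or 3 of 4 h in their own comparisons. In fits of only the arrays compared, which have fewer arrays, it was 0 at 1, 2, 3 and 5 h and 1 at 4 and 6 h. With array weights it was 3 at 4 h and 2 at 5 h, without repeat 3 of 0 to 2 h 1 at 2 h, and with the replicate block, trended robust variance or no dim genes 1 at 0.5 h. The causes were not tested. Among the pectin genes, the replicate block added the calls of AT2G43880 at 0.5 h (adjusted p = 0.0198), AT3G15720 at 5 h (0.0471) and AT1G48100 at 2 h (0.0481), and ended that of AT2G43890 at 5 h (0.0502). The repeat numbers share only a number here. Many of the listed genes are dim, and small changes there cannot be told from noise on 3 arrays a time.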
